A study of Mus musculus with 8 samples.

Results

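The 42 genes described here encode factors that make ribosomes, and they were taken by name. Every non-control probe whose gene name was 1 of the 42 listed symbols was used, with no regard to its signal. The list itself was chosen with earlier results of these data known. In those results this gene group was already seen to be lower in fetal cells. All 42 were found, by 59 probes, among 22928 genes or unnamed transcripts that could be tested. For a gene with several probes (12 of the 42) the test used the probe with the highest average signal on the 8 arrays. All 59 probes passed the minimum of a signal well above background on 2 of the 8 arrays, and all 42 genes stayed in the test.

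RNA came from mouse pro-B cells, the B-lineage stage at which the antibody heavy chain gene is being rearranged. All cells, controls included, were from BALB/c Rag1 null animals, which lack a recombinase gene whose loss stops B cells at that stage, and all grew on OP9 stromal cells with interleukin 7. In the bone marrow arm, cells of 2 adult mice per sort received either a retrovirus with Lin28b or its empty vector pMIG. In the fetal liver arm, pooled cells of 8 embryos per sort on average, at day 16 of gestation, received a let-7b retrovirus or its empty vector, named MSCV. Cells positive for GFP, a fluorescent marker, were sorted 4 days later. There were 4 groups, each with 2 arrays that the labels number as individual sorts.

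Ribosomes are built in the nucleolus. RNA polymerase I transcribes a long precursor RNA, box C/D and box H/ACA ribonucleoproteins add methyl groups and pseudouridines to it, and sets of assembly factors then cut, fold and escort the small and the large subunit. Many such genes are classic targets of the transcription factor Myc, which binds the E-box letters CACGTG, and dividing cells are known for strong expression of them. Lin28b is an RNA-binding protein of fetal blood progenitors that blocks maturation of let-7 microRNAs, and let-7 in turn represses Lin28b.

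The microRNA delivered to the fetal cells is shown because it defines that arm. Its mature form, encoded at chr15:85707325-85707346 on the plus strand (GRCm38.p6, sequence from RefSeq), has its seed, bases 2 to 8, in capitals.
mmu-let-7b-5p: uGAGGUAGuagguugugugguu

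An E-box is shown where a member's promoter held it. RefSeq windows of the 250 bases before the transcript start were at hand for 37 of the 42 genes, all but Bop1, Fbl, Npm1, Rrp12 and Rrs1. The letters CACGTG, which read the same on both strands, stood in the windows of 3 of these 37 (8.11%), against 1854 of 27025 genes of the whole table (6.86%). The 3 were Imp4, Nop2 and Utp18, with the motif (in capitals) beginning 121, 60 and 20 bases before the start. Up to 30 bases on each side are printed, on the strand of the gene in GRCm38.p6: chr1:34439678-34439743 (plus) for Imp4, chr6:125131793-125131858 (plus) for Nop2 and chr11:93885767-93885816 (minus) for Utp18.
Imp4: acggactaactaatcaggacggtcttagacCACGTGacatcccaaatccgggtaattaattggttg
Nop2: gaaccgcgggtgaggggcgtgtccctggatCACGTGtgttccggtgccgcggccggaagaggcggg
Utp18: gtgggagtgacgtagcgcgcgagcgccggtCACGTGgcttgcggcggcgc
A match describes these letters only, and factor binding was not measured.

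Levels are log2 of the background-corrected spot signal minus the 75th percentile of the array, and differences are differences of these levels. Each difference is given with the standard error of limma, which was fitted to all 22928 genes on all 8 arrays, and "called" means an adjusted p below 0.05 over all of them. With 2 arrays a group the smallest two-sided p of an exact permutation test is 0.333, so single genes rest on limma, whose p-values measure only the spread between these sorts. The 4 bone marrow arrays shared 1 slide and scan. The fetal arrays lay on the 2 other slides, each with 1 array per virus. The 75th percentile signal was 1925 to 2234 in bone marrow and 271 to 488 in fetal liver, where empty vector replicate 2 was the dimmest array. For the 42 genes the median SD between replicates was 0.02 and 0.04 in bone marrow (Lin28b, empty vector) and 0.19 and 0.11 in fetal liver (empty vector, let-7b). Replicates thus lay closer together in bone marrow. Of 10 pro-B markers 9 could be tested and were well above background on both arrays of every group. The erythroid genes Alas2 and Hbb-b1 and the hepatocyte genes Alb, Apoa1 and Ttr did not reach the minimum, while 3 erythroid and 2 hepatocyte markers did, with values given beside the tissue comparison. A Lin28b probe lay at 0.21 ± 0.19 (SD, n = 2) with the Lin28b virus and was not well above background with the empty vector, at least 137-fold higher. In a limma fit of all probes that probe had an adjusted p of 0.00315. The second Lin28b probe, which stood for the gene in the test of 22928, differed by 0.64 ± 0.28 there (limma adjusted p = 1).

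Ribosome biogenesis genes were lower in fetal liver than in bone marrow pro-B cells that carried only an empty vector. The 42 were listed with this direction already known, so it is no independent support. Of the 42, limma called 30 lower and 2 higher, while over all genes 19.5% were called lower and 40.1% higher. The median difference of the 42 was -0.67, against 0.52 over all genes, and 41 of the 42 lay below that all-gene median (50% of all genes by definition). The difference was negative for 36 (35.4% of all genes). The largest falls were those of Dkc1, Nop58, Gnl3 and Ncl, each from a different role group. Utp18, for which the fetal level is only a bound, is counted among the 30. In 34 genes both fetal arrays lay below both marrow arrays and in 4 they lay above (28.3% and 54.8% of all genes).

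Scaling moved the zero of this comparison, and the median of the 42 lay below that of all genes under 75th percentile and quantile scaling, by -1.19 and -0.91. Under quantile scaling the median over all genes was 0.02, with 25.1% of genes called higher and 27.2% lower, and the 42 had a median of -0.89 with 33 called lower and 2 higher. Under median scaling the medians were 0.19 for all genes and -1.0 for the 42, with 35 called lower and 0 higher (27.1% and 30.6% of all genes). Median scaling shifts all genes of an array alike, so it leaves the distance from the all-gene median as it was. Tissue, age, vector, slide and scan all differ between the 2 control groups and cannot be told apart, and in bulk RNA fewer cells of a type cannot be told from less RNA per cell. Normexp background correction lowered the count from 30 to 16, and the share of all genes called lower from 19.5% to 7.18%. Without bone marrow empty vector replicate 2, which leaves 1 array in that group, the median of the 42 was -0.64 against 0.52 over all genes. Of the 30, 15 were called lower under all 19 alternatives run: Ddx21, Dkc1, Ebna1bp2, Gar1, Gnl3, Ncl, Nolc1, Nop14, Nop56, Nop58, Rrs1, Tsr1, Wdr12, Wdr43 and Wdr75. The same count over all genes was not made, so it does not set the 42 apart from other genes.

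**Figure D1:**
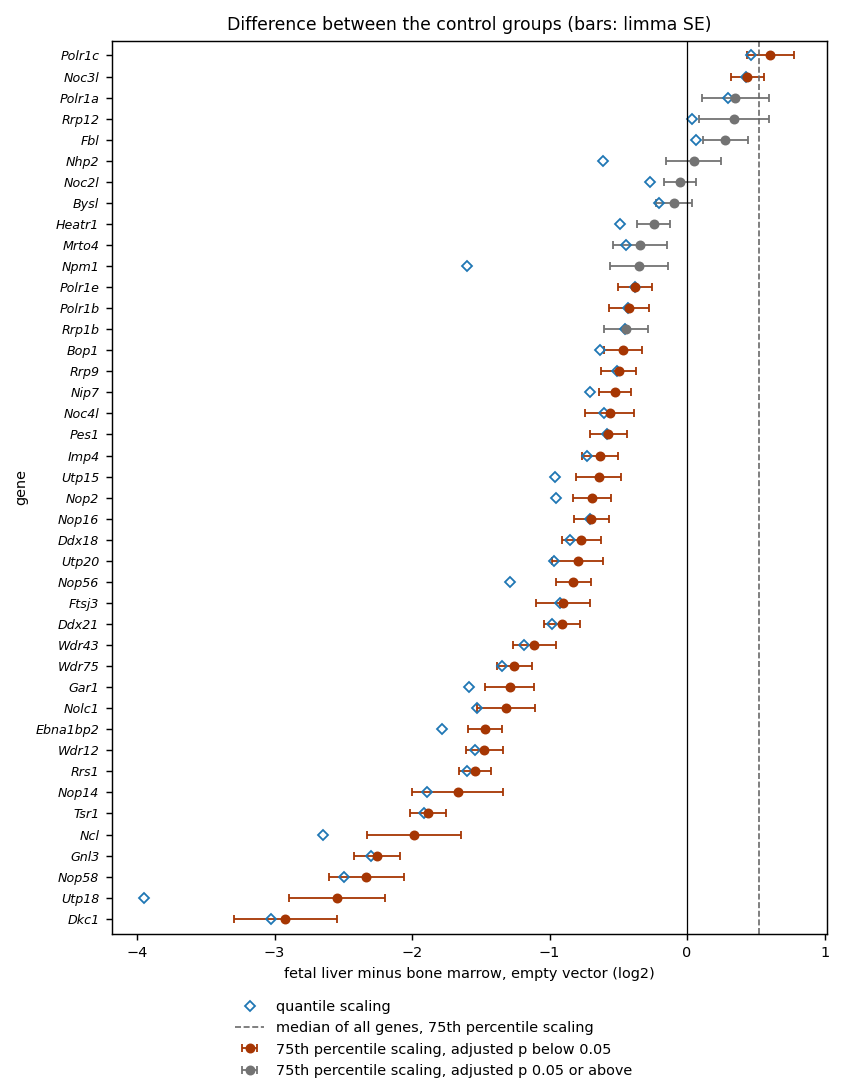
Difference between fetal liver and bone marrow empty-vector cells for each of the 42 genes (x axis, log2; circles with bars for the limma SE, coloured by call; open diamonds for quantile scaling). Of the circles, 36 lie left of 0 and 41 left of the dashed line at 0.52, the median of all genes.

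The box H/ACA proteins, which guide and carry out pseudouridylation, gave the largest single difference. Dkc1, the pseudouridine synthase dyskerin, lay at 1.94 and 1.90 on the bone marrow control arrays and at -0.45 and -1.56 on the fetal ones. The groups were far apart, although the fetal pair was itself spread more widely than the marrow pair, and the difference was -2.92 ± 0.37 (7.58-fold lower, limma adjusted p = 0.00185). Gar1, a core protein of the same particle, lay at 5.0 and 4.96 in marrow and 3.84 and 3.54 in fetal cells, a difference of -1.29 ± 0.18 (adjusted p = 0.00232). Nolc1, a nucleolar chaperone of these particles, went from 4.43 and 4.32 to 3.28 and 2.84 (-1.32 ± 0.21, adjusted p = 0.00375). Nop10, a core protein from the wider list described below, differed by -0.71, and by -0.93 under quantile scaling. Nhp2, also a core protein, did not follow these falls. Nhp2 lay at 5.79 and 5.76 in marrow and 5.59 and 6.07 in fetal cells, which straddled the marrow values, and differed by 0.05 ± 0.20 (adjusted p = 0.848), or by -0.61 under quantile and -0.29 under median scaling.

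Box C/D proteins, which direct methylation of the precursor, were split in the same way. Nop58, a scaffold of the particle, lay at 4.31 and 4.23 in marrow and 2.33 and 1.54 in fetal cells. No fetal value came near a marrow value, and the difference was -2.33 ± 0.27 (5.04-fold lower, adjusted p = 0.00142). Its partner Nop56 went from 5.54 and 5.50 to 4.63 and 4.75 (-0.83 ± 0.13, adjusted p = 0.00313), and all 3 of its probes were lower, by -0.83 to -0.49. Fbl, the methyltransferase fibrillarin, lay at 3.60 and 3.60 in marrow and slightly above that, at 3.70 and 4.05, in fetal cells. That difference of 0.28 ± 0.16 was not called (adjusted p = 0.188) and was -0.06 under median scaling.

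Among the 13 factors of the small subunit 10 were called lower and 0 higher (19.5% and 40.1% of all genes), and the median was -0.64. Tsr1, which acts late on the precursor of the small subunit, lay at 1.82 and 1.71 in marrow and -0.04 and -0.20 in fetal cells. It had the smallest p of the 42 (limma adjusted p = 0.000567), with a difference of -1.88 ± 0.13, and its second probe gave -1.91. Nop14, a scaffold of the small subunit processome, went from -0.35 and -0.18 to -1.44 and -2.43 (-1.67 ± 0.33, adjusted p = 0.00762), with the dimmer fetal array much the lower. Utp18, of the processome module UTP-B and 1 of the genes with an E-box above, was well above background on all 4 marrow arrays and on 0 of the 4 fetal arrays. Its measured levels were -4.56 and -4.93 against -7.82 and -6.77, so the fetal level is only a bound, at least 1.25-fold lower (measured difference -2.55 ± 0.35, adjusted p = 0.00227; 1.06 with normexp background correction).

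The WD-repeat proteins Wdr43 and Wdr75, with Heatr1 and Utp15, belong to the module that first joins the nascent transcript. Wdr75 lay at 3.20 and 3.15 in marrow and 2.03 and 1.82 in fetal cells, apart by -1.26 ± 0.13 (adjusted p = 0.00105). Wdr43 differed by -1.11 ± 0.15 (adjusted p = 0.00231) and Utp15 by -0.64 ± 0.16 (adjusted p = 0.0179). Heatr1, of the same module, differed by -0.24 ± 0.12 and was not called (adjusted p = 0.123), although its fetal values of 3.80 and 3.87 were both under its marrow values of 4.13 and 4.03. Smaller falls were called for Utp20 (-0.80 ± 0.18), for Imp4 (-0.63 ± 0.13) and Rrp9 (-0.50 ± 0.13), both of the U3 particle, and for Noc4l (-0.56 ± 0.18), the partner of Nop14. Bysl (-0.10 ± 0.13) and Rrp12 (0.34 ± 0.26), factors of late maturation and export, had overlapping groups and were not called.

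Of the 15 large subunit factors 11 were called lower and only Noc3l higher (19.5% and 40.1% of all genes), with a median of -0.69. Gnl3, the nucleolar GTPase nucleostemin, lay at 2.51 and 2.71 in marrow and 0.54 and 0.18 in fetal cells (-2.25 ± 0.17, 4.77-fold lower, adjusted p = 0.000624). Rrs1, which helps load the 5S ribonucleoprotein, went from 2.66 and 2.68 to 1.11 and 1.15, with close replicates in both groups (-1.54 ± 0.12, adjusted p = 0.000653). Ebna1bp2 went from 4.97 and 5.10 to 3.62 and 3.51 (-1.47 ± 0.12, adjusted p = 0.000749), and its 3 probes gave nearly 1 value, -1.50 to -1.46.

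The PeBoW complex joins Pes1, Bop1 and Wdr12 for maturation of the large subunit RNAs. All 3 genes were called lower by the tested probe, but the other Pes1 probe gave 0.52. Wdr12 lay at 0.79 and 0.81 in marrow and -0.62 and -0.74 in fetal cells (-1.47 ± 0.14, adjusted p = 0.000869). Bop1 differed by -0.46 ± 0.14 (adjusted p = 0.0307), and the tested Pes1 probe by -0.57 ± 0.14 (adjusted p = 0.0148). Other called falls were those of the methyltransferase gene Ftsj3 (-0.90 ± 0.20), the helicase gene Ddx18 (-0.77 ± 0.14), Nop16 (-0.70 ± 0.13), the RNA methyltransferase gene Nop2 (-0.69 ± 0.14) and Nip7 (-0.52 ± 0.12). The other probe of Nip7 gave 0.44.

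Noc3l, an assembly factor of early large subunit particles, went the other way, from 0.30 and 0.28 in marrow to 0.79 and 0.66 in fetal cells (0.44 ± 0.12, adjusted p = 0.0234). Both fetal values exceeded both marrow values, yet under median scaling the difference was 0.10 and not called, and the calls of Noc3l and of Polr1c, described next, were both lost when any 1 of the 4 bone marrow arrays was left out. Rrp1b (-0.44 ± 0.16, adjusted p = 0.0523) lay just outside the threshold. Mrto4 (-0.34 ± 0.20) and Noc2l (-0.05 ± 0.11) were not called.

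RNA polymerase I itself showed no common direction between the tissues. Polr1b, the second-largest subunit, was lower in fetal cells, at 0.06 and 0.37 against 0.64 and 0.64 in marrow (-0.42 ± 0.15, adjusted p = 0.0487). Polr1e, whose product helps the enzyme start, was lower as well, at 0.97 and 0.84 against 1.32 and 1.25 (-0.38 ± 0.12, adjusted p = 0.0413). Polr1c, a subunit shared with RNA polymerase III, was higher, at 3.06 and 3.49 against 2.64 and 2.69. Its groups did not overlap, and limma gave 0.61 ± 0.17 (adjusted p = 0.0268), falling to 0.27 and losing the call under median scaling. Polr1a, the largest subunit, differed by 0.35 ± 0.24 (adjusted p = 0.256), with 1 fetal array close to the marrow arrays. With the replicate number as a block, Polr1b (adjusted p = 0.0602) and Polr1e (0.0649) lost their calls.

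The abundant nucleolar proteins bind precursor RNA and shape the nucleolus. Ncl, nucleolin, lay at 6.33 and 6.41 in marrow and 4.91 and 3.86 in fetal cells (-1.98 ± 0.34, 3.96-fold lower, adjusted p = 0.00475), and its second probe gave -2.3. Ddx21, a helicase that works with polymerase I, went from 2.69 and 2.74 to 1.90 and 1.71 (-0.91 ± 0.13, adjusted p = 0.00251), with -1.59 at its other probe. For Npm1, nucleophosmin, the tested probe gave -0.35 ± 0.21 (adjusted p = 0.193), and its 5 probes ranged from -1.14 to -0.09, all negative. Under quantile scaling the tested probe gave -1.60.

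Probes of 2 genes pointed in opposite directions. For Nip7, whose product acts on the large subunit, the tested probe gave -0.52 and the other 0.44. For Pes1 the gap was larger, 1.10, so both probes are identified here by their first 30 of 60 bases, as the array files give them (mm9 chromosome 11, plus strand): the tested probe at chr11:3879948-3880007 and the dimmer one at chr11:3873303-3873362.
Pes1, tested probe: aagtatgtatggctcacacttccacattgt
Pes1, dimmer probe: attcagttgtgccgtaggctcactgtggag
The tested probe lay at 1.54 and 1.39 in marrow and 0.96 and 0.82 in fetal controls. The dimmer probe lay at -1.08 and -1.19 in marrow and -0.89 and -0.33 in fetal controls, a difference of 0.52. Both were well above background on all 8 arrays, so the direction for Pes1 depends on the probe.

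**Figure D2:**
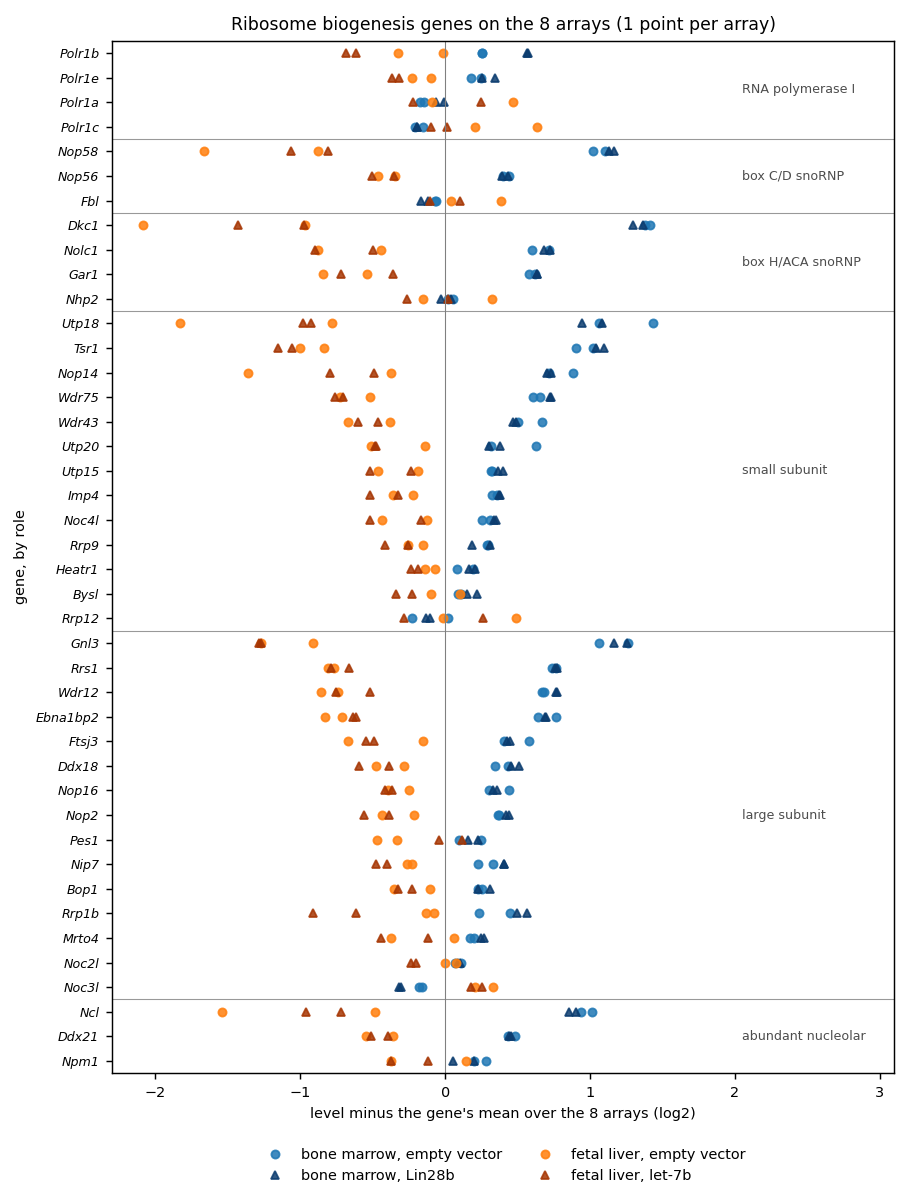
Level of each of the 42 genes on each of the 8 arrays, as log2 difference from the gene's own mean over the arrays (x axis), with genes grouped by role and ordered by the fetal minus marrow difference (y axis). The median over the 42 is 0.33 to 0.42 on the marrow arrays (blue) and -0.47 to -0.33 on the fetal arrays (orange). In marrow both triangles (Lin28b) lie above both circles (empty vector) in 17 genes and below in 5 (18.4% and 32.3% of all genes). In fetal liver both triangles (let-7b) lie above in 2 and below in 11 (11.9% and 18.2%).

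Other genes of the pathway were described from a wider list, also chosen with earlier results of these data known. Of 97 further ribosome biogenesis genes 51 were called lower and 17 higher in fetal cells (19.5% and 40.1% of all genes). Their median was -0.55, against 0.52 over all genes. The largest fall was that of Mdn1, the giant ATPase that remodels large subunit particles, from -0.47 and -0.15 to -2.01 and -2.86 (-2.13 ± 0.31, adjusted p = 0.00266). Pno1, of the small subunit precursor, went from 3.94 and 3.93 to 2.27 and 1.76 (-1.92 ± 0.19, adjusted p = 0.00104), and Nmd3, the export adaptor of the large subunit, differed by -1.73 ± 0.20 (adjusted p = 0.00148). Among the 17 that rose, Nop53, an adaptor that brings the exosome to large subunit particles, went from 0.73 and 0.61 to 3.20 and 3.39 (2.63 ± 0.16, adjusted p = 0.00051). Ubtf, the upstream binding factor of polymerase I, differed by 1.09 ± 0.23 and Eif6, which keeps the subunits apart, by 1.08 ± 0.11. Exosc2, an exosome subunit, differed by 2.20 ± 0.18, but by -0.087 under quantile scaling. Under quantile scaling 55 of the 97 were called lower and 12 higher (27.2% and 25.1% of all genes).

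Genes of the ribosome's own proteins were higher in fetal controls under every alternative run except quantile scaling. All 75 cytosolic ribosomal protein genes had positive differences and 74 were called higher (40.1% of all genes), with a median of 1.61. Median scaling gave 70 called higher and a median of 1.28, and normexp background correction gave 61 and 1.40. Of all genes 30.6% and 38.3% were called higher in these 2 fits. Under quantile scaling 3 were called higher and 14 lower (25.1% and 27.2% of all genes), with a median of -0.07. Under 75th percentile and quantile scaling their median lay above that of the 42.

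Myc itself was lower in the fetal controls, at 3.0 and 2.58 against 3.77 and 3.74 in marrow (-0.96 ± 0.25, limma adjusted p = 0.0194). Its partner Max differed by -0.28 ± 0.12 (adjusted p = 0.0878) and Mycn by -0.22 ± 0.25 (adjusted p = 0.481), neither called, and Mycl1 did not reach the minimum. Of 15 cell cycle genes tested, 5 were called lower and 1 higher (19.5% and 40.1% of all genes), with a median of -0.31. Those 5 were Mki67 (-1.01 ± 0.24), Pcna (-0.93 ± 0.13), Bub1 (-0.91 ± 0.15), Cdk1 (-0.65 ± 0.21) and Ccna2 (-0.52 ± 0.12). The gene that rose was Plk1 (0.55 ± 0.19, 0.21 under quantile scaling). Under quantile scaling 9 of the 15 were called lower and 0 higher, against 27.2% and 25.1% of all genes. Markers of other cells differed too: the summed level of 10 stromal markers, in multiples of the 75th percentile signal, was 5.07 to 7.32 on fetal and 16.8 to 18.2 on marrow control arrays. The sum of 7 myeloid markers was 28.7 to 61.0 and 9.05 to 9.49. Of these 7, 3 were called higher and 1 lower (-2.51), against 40.1% and 19.5% of all genes. The sum of 3 T and NK cell markers, all 3 called higher in fetal cells, was 8.46 to 12.7 and 4.73 to 4.97. The 3 erythroid markers summed to 0.15 to 0.26 and 0.11 to 0.12, with 1 called higher (Hba-a1, 2.17 ± 0.55). The 2 hepatocyte markers summed to 0.14 to 0.24 and 0.02 to 0.04, with 1 called higher (Serpina1a, 3.46 ± 0.58). The other, Afp, went the opposite way and was not called (-0.84), with both fetal arrays below both marrow arrays. Of the 2 hepatocyte markers, 1 was well above background on neither fetal control array. The 9 pro-B markers themselves summed to 802 to 1090 on fetal and 364 to 386 on marrow control arrays. Of the 9, 5 were called higher, against 40.1% of all genes. The part of these cells in the difference was not tested.

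**Figure D3:**
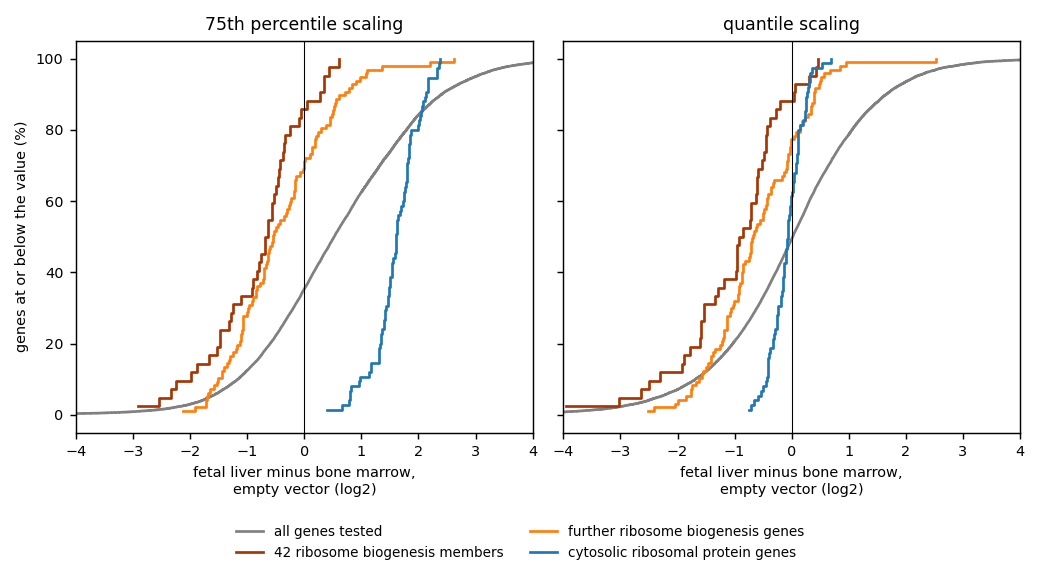
Cumulative share of genes (y axis, %) by the difference between fetal liver and bone marrow empty-vector cells (x axis, log2) for the 42 genes, 97 further ribosome biogenesis genes, 75 cytosolic ribosomal protein genes and all genes tested, under 2 scalings. The medians of the 42 (-0.67 and -0.89) lie left of those of all genes (0.52 and 0.02) in both panels, while the ribosomal protein curve moves from a median of 1.61 to -0.07.

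The question of the bone marrow arm was whether Lin28b changes adult pro-B cells. Lin28b left no ribosome biogenesis gene past the threshold: 0 of the 42 were called by limma, as were 0 of all 22928 (0%). In that count Lin28b itself stood by its second probe, not by the one raised at least 137-fold. An unadjusted p below 0.05 was reached by 0 of the 42 (1.95% of all genes higher, 1.62% lower). Differences were small, from -0.23 to 0.31, with a median of 0.02 against -0.04 over all genes. Of the 42, 24 had a positive difference (40.7% of all genes did). In 17 both Lin28b arrays lay above both control arrays and in 5 below (18.4% and 32.3% of all genes).

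Polr1b had the largest positive difference, with levels of 0.95 and 0.96 with Lin28b against 0.64 and 0.64 with the empty vector. Replicates were almost equal, and the difference of 0.31 ± 0.15 (limma adjusted p = 1) carries a standard error drawn from all 8 arrays. The remaining polymerase I subunits differed by 0.12 ± 0.24 (Polr1a), 0.08 ± 0.12 (Polr1e) and -0.01 (Polr1c). In the large subunit group Rrp1b came next, at 0.95 and 1.02 against 0.90 and 0.69 (0.19 ± 0.16), followed by Nip7 at 3.89 and 3.89 against 3.81 and 3.71 (0.13 ± 0.12). Noc3l was lower on both Lin28b arrays, 0.14 and 0.15 against 0.30 and 0.28 (-0.14 ± 0.12). In the small subunit group Tsr1 lay at 1.90 and 1.84 against 1.82 and 1.71 (0.11 ± 0.13), with groups apart by less than the gap within the control pair. Utp18 gave the lowest value (-0.23 ± 0.35) with overlapping arrays.

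Genes of the modification particles and the abundant nucleolar proteins differed little between the viruses in marrow. Dkc1 lay at 1.82 and 1.88 with Lin28b against 1.94 and 1.90 (-0.07 ± 0.37), and Nop58 at 4.34 and 4.37 against 4.31 and 4.23 (0.08 ± 0.27). Ncl differed by -0.09 ± 0.34, Fbl by -0.08 ± 0.16, Gar1 by 0.04 ± 0.18 and Npm1 by -0.11 ± 0.21, all with adjusted p = 1. Of the 97 further genes 0 were called (median 0.02), and Myc lay at 3.78 and 3.76 against 3.77 and 3.74. Stromal marker sums were 23.8 to 32.8 with Lin28b and 16.8 to 18.2 with the empty vector. Of 7 myeloid markers 3 lay above both controls on both Lin28b arrays and 4 below, with measured differences from -0.52 to 6.95. All 7 were well above background on both Lin28b arrays, while 2 were so on neither empty vector array. Myeloid sums were 7.53 to 9.80 and 9.05 to 9.49. The part of these cells in these values was not tested.

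The fetal arm asked the reverse, what let-7b does to fetal pro-B cells. Let-7b also moved no ribosome biogenesis gene past the threshold: 0 of the 42 were called, against 7 of 22928 genes (0.0305%). Of the 42, 31 had a negative difference (57.2% of all genes did), and the median was -0.11 against -0.06 over all genes. Without empty vector replicate 1 of the fetal arm 22 were negative, and the median of -0.0087 lay above that of all genes (-0.04). It also lay above without let-7b replicate 1 (-0.07 against -0.10), so no position relative to all genes holds. In 11 genes both let-7b arrays lay below both controls, in 2 above (18.2% and 11.9% of all genes). An unadjusted p below 0.05 was reached by 3 lower genes (5.35% of all genes) and 1 higher gene (4.42%).

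All 4 polymerase I genes had negative differences with let-7b, none called. Polr1b lay at -0.30 and -0.22 against 0.06 and 0.37 with the empty vector. The groups did not overlap, and the difference was -0.48 ± 0.15 (limma adjusted p = 0.391), -0.36 on the second slide and -0.60 on the third. Polr1c lay at 2.75 and 2.86 against 3.06 and 3.49, also without overlap (-0.46 ± 0.17, adjusted p = 0.48; -0.30 and -0.62 on the slides). Polr1e differed by -0.18 ± 0.12 and Polr1a by -0.18, lower on both slides too, although the Polr1a difference was 0.10 without empty vector replicate 2.

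Rrp1b, a nucleolar factor of the large subunit, had the lowest difference and the smallest p of the 42. It lay at -0.16 and -0.46 with let-7b against 0.38 and 0.32, apart by more than either pair was spread. The difference was -0.66 ± 0.16 (1.58-fold lower, unadjusted p = 0.00628, adjusted p = 0.283), -0.54 and -0.78 on the slides. With slide and replicate as a block its adjusted p was 0.324. Smaller separations downward were those of Noc2l (-0.25 ± 0.11), Bysl (-0.28 ± 0.13), Nip7 (-0.19 ± 0.12) and Tsr1 (-0.19 ± 0.13).

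The 2 genes with both let-7b arrays above both controls were Pes1 and Ebna1bp2, the second named after its values were seen. The tested Pes1 probe lay at 1.25 and 1.41 against 0.96 and 0.82 (0.44 ± 0.14, adjusted p = 0.398), while the dimmer probe lay at -1.23 and -0.92 against -0.89 and -0.33, a difference of -0.46. Their mean gave -0.013, so no direction can be given. Ebna1bp2 differed by 0.14 ± 0.12, and by -0.30 with normexp background correction.

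For Nop58, Dkc1 and Ncl the sign of the let-7b difference rested on 1 array. Nop58 lay at 2.40 and 2.14 against 2.33 and 1.54 (0.33 ± 0.27), Dkc1 at -0.45 and -0.91 against -0.45 and -1.56 (0.32 ± 0.37) and Ncl at 4.68 and 4.44 against 4.91 and 3.86 (0.17 ± 0.34). In each the groups overlapped, and empty vector replicate 2 was the lowest array. Without that array the differences were -0.062, -0.23 and -0.36, so no direction holds. Over the 42 the median was -0.14 on the second slide, with 35 lower (52.3% of all genes), and -0.06 on the third, with 26 lower (60.1%). With the second slide left out, which leaves 1 array per fetal group, the spread comes from the bone marrow groups, and 2 genes (Polr1b and Polr1c) were called lower and 1 (Dkc1) higher, beside 4.85% and 4.46% of all genes. Of the 97 further genes 0 were called, with a median of -0.09, and Myc lay at 2.83 and 2.21 against 3.0 and 2.58 (-0.28 ± 0.25). Stromal marker sums were 7.35 to 11.1 with let-7b and 5.07 to 7.32 with the empty vector, and their part was not tested.

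Lin28b and let-7b are opposing agents, and their 2 comparisons share no array. Side by side, 19 of the 42 genes (45.2%) were higher with Lin28b and lower with let-7b, against 23.9% of all genes, and 6 (14.3%) showed the reverse, against 25.9%. Such pairs depend on the separate tallies: 24 of the 42 were positive with Lin28b and 31 negative with let-7b (40.7% and 57.2% of all genes). Whether the 19 exceed what those tallies give was not tested. The members' count was 20 under quantile scaling and 18 under median scaling, beside 24.1% and 21.9% of all genes tested. Without empty vector replicate 1 of the fetal arm 16 were higher with Lin28b and lower with let-7b and 12 showed the reverse (22.9% and 28.7% of all genes). Polr1b and Rrp1b stood out in the plot of both treatments, at 0.31 and -0.48, and at 0.19 and -0.66. Across the 42 genes, taken as a description since genes are not replicates, Spearman's rho of the pairs of differences was -0.33 (all genes -0.03). The Lin28b difference was no larger than its standard error in 38 of the 42 and the let-7b difference in 24, and none was called. That standard error pools the spread of all groups. The median SD between replicates was 0.02 and 0.04 in marrow but 0.19 and 0.11 in fetal liver. The 38 therefore do not show that Lin28b differences lay within the marrow spread. In marrow both Lin28b arrays lay above both controls in 17 genes and below in 5 (18.4% and 32.3% of all genes). Each treatment shares its empty vector arrays with the tissue comparison, so its values were not set against that comparison.

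**Figure D4:**
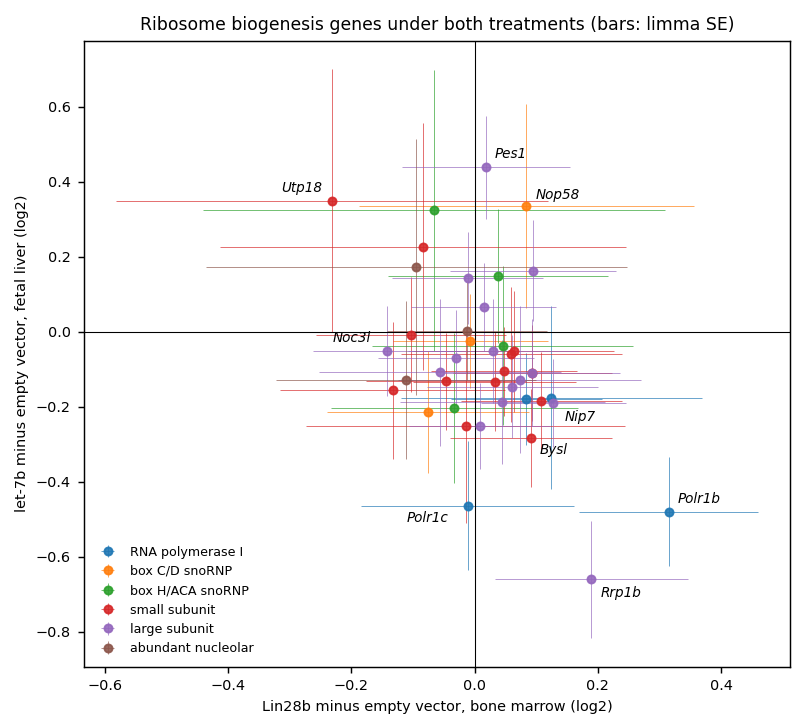
Difference with Lin28b in bone marrow (x axis, log2) against difference with let-7b in fetal liver (y axis, log2) for the 42 genes, coloured by role, with bars for the limma SE. Of the points, 19 lie right of and below 0, with Polr1b (0.31, -0.48) and Rrp1b (0.19, -0.66) farthest out and 39 of the 42 points within 1 standard error of an axis. The SE pools the spread of all groups, although replicates lay closer together in marrow. Utp18 was not well above background on the fetal arrays, so its vertical position has no order.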

How the data were processed

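RNA of sorted pro-B cells was hybridised to 8 single-colour (Cy3) Agilent arrays. Intensities per spot were corrected for background by Agilent Feature Extraction 9.5.3.1, per the file headers, and deposited by the authors without scaling between arrays. The authors also deposited a table of normalized log2 values, used only as an alternative and only within a tissue, since its column medians were 7.22 in bone marrow and 6.16 in fetal liver; how it was normalized is not given in the sources here. From the intensities, each array's 75th percentile over 43020 non-control spots was subtracted from log2 of the processed signal. Copies of a probe were averaged. Of 39429 probes, 31 had no unflagged spot on some array and 10988 were well above background on fewer than 2 arrays, and 28410 were kept, for 22928 genes. Genes were named through RefSeq (GRCm38.p6) by accession, symbol or synonym; positions of probes follow the array's design (mm9).

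Groups followed the labels. One limma fit (version 3.58.1, R 4.3.3; lmFit and eBayes, Benjamini-Hochberg adjustment) on all 8 arrays gave 3 contrasts: Lin28b minus empty vector, let-7b minus empty vector, and fetal liver minus bone marrow empty vector. The code was tested on simulated data. Precision is limited by the number of arrays. The members and lists were chosen with earlier results of these data known, in which this gene group was already seen to be lower in fetal cells, so that direction is no independent support. Values on single arrays are given for up to 3 genes per role with the smallest p of a comparison, for the 4 largest rises and the 4 largest falls, for genes whose probes disagreed by over 1 and for genes below background in a group. Alternatives were the filter, quantile and median scaling, normexp (offset 50), trend and robust eBayes, fewer groups, probe means, slide and replicate blocks, the deposited table and leaving out each array; leaving out a fetal slide was added after the data were seen. The replicate number and slide coincide in fetal liver, where same-numbered arrays deviated together (correlation 0.52 across genes; -0.06 in bone marrow).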

Additional observations from a re-analysis of the deposited data

How the results depend on the processing

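Between fetal liver and bone marrow controls, the count of 30 genes called lower was 16 with normexp, 21 with only the 2 groups fitted, 23 with slide as a random block, 33 with quantile and 35 with median scaling, and 19 to 29 without 1 array (19 without bone marrow empty vector replicate 2). The 2 called higher became 0 with median scaling, normexp, only the 2 groups, or slide as a random block, 0 to 3 without 1 array (0 without any 1 of the 4 bone marrow arrays), and 5 without the second slide. Over all genes 40.1% were called higher in the main fit. That share was 30.6% with median scaling, 38.3% with normexp, 35.0% with only the 2 groups and 32.1% with slide as a random block. The share of all genes called lower was 19.5% in the main fit and 7.18% with normexp. It was 15.1% with only the 2 groups, 14.5% with slide as a random block, 27.2% with quantile and 27.1% with median scaling. In these fits the count of the 42 lay below 30 where this share lay below 19.5%, and above 30 where it lay above. The median of -0.67 for the 42 was -0.89 with quantile and -1.0 with median scaling, and -0.74 to -0.62 without 1 array. With the replicate number as a block 28 were called lower and 2 higher (19.0% and 40.8% of all genes). That fit called 0 in either treatment comparison, where the unblocked fit also called 0. For let-7b, leaving out the second slide (1 array per fetal group, spread from the bone marrow groups) gave 2 called lower and 1 higher, beside 4.85% and 4.46% of all genes. The let-7b median of -0.11 was -0.31 with normexp and -0.16 to -0.0087 without 1 array. No alternative run for Lin28b called a gene of the 42.

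Under at least 1 alternative the sign turned for 4 of the 42 genes in the tissue comparison, 26 with let-7b and 18 with Lin28b. Leaving out 1 array turned up to 11 with let-7b (without either fetal empty vector array) and 11 with Lin28b (without bone marrow empty vector replicate 2). In the tissue comparison these were Nhp2 (-0.61 quantile, -0.29 median scaling, -0.20 normexp, -0.19 without the third slide; -0.19 to 0.29 without 1 array), Fbl (-0.058 median scaling), Utp18 (1.06 normexp) and Bysl (0.0030 without the second slide; -0.19 to 0.003 without 1 array). Among the genes described individually, the sign turned with let-7b for Ncl (-0.28 normexp, -0.23 without the third slide; -0.36 to 0.70 without 1 array), Dkc1 (-0.0068 without the third slide; -0.23 to 0.88 without 1 array), Nop58 (-0.062 to 0.73 without 1 array), Ebna1bp2 (-0.30 normexp), Pes1 (-0.013 with probes averaged) and Polr1a (-0.46 to 0.10 without 1 array), and with Lin28b for Polr1c (0.000816 normexp; -0.039 to 0.016 without 1 array). The cause was not tested. Low fetal signal limits Utp18 to a bound, and 2 arrays a group limit the rest.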
